A study of Mus musculus with 16 samples.

Results

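The ribosome biogenesis factors are 53 genes, listed by symbol, whose proteins build ribosomes without being part of the finished particle. Each was looked up on the arrays through the platform's annotation, using probe sets that carry a single gene symbol and, where a gene had several, the brightest of them. Of the 53 genes, 51 were measured in this way, all 51 passed the filter on dim genes, and they stand among 16760 genes tested. Fbl, the methyltransferase of box C/D ribonucleoproteins, and Tsr1, a factor of small subunit maturation, lie only on probe sets shared with another symbol and have no value here. The rule that names the 53 genes uses their symbols and no measured value, although the list was drawn up with earlier results of these data known.

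The cells were regulatory T (Treg) cells of C57BL/6 mice, sorted as CD4+ cells with a Foxp3-YFP reporter out of spleen and peripheral nodes. They were cultured for 4 h on plates coated with antibodies to CD3 and CD28, which activate T cells. Atg7, an enzyme that autophagy requires, was floxed on both copies (Atg7 fl/fl, called Atg7-/-) or on 1 copy (Atg7 +/fl, called Atg7+/-), and the Cre recombinase was expressed with Foxp3, so that deletion was driven in Foxp3-expressing cells and every group carried Foxp3-Cre. The 4 groups of 4 arrays were Atg7-/- cells of mice given rapamycin, Atg7+/- cells of mice given rapamycin, Atg7-/- cells of untreated mice and Atg7+/- cells of untreated mice. Rapamycin, an inhibitor of the kinase mTOR, was injected into the peritoneum daily over 5 days at a dose of 4 mg per kg, and no group injected with vehicle is among the samples. Whether the 4 arrays of a group came from different mice is not stated, and the p-values below therefore describe the spread among these arrays, part of which may be technical.

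Ribosomes are assembled in the nucleolus. RNA polymerase I transcribes a long precursor of the ribosomal RNAs, small nucleolar ribonucleoproteins guide its chemical modification, and large assemblies of proteins then fold and cut it into the parts of the small and the large subunit. The kinase complex mTORC1, which rapamycin inhibits, is a known promoter of ribosomal RNA synthesis, and T cells enlarge their nucleoli when they are activated.

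Promoter sequence is shown for 5 members around which the results below turn. Utp4, Nop2, Ppan and Dkc1 passed the test as lower with rapamycin in both genotypes and have 1 start site in the RefSeq promoter table, and Nhp2 has the smallest p between the genotypes. Each stretch holds 120 bases before the start and 30 bases after it, 5′ to 3′, on build GRCm38.p6. Capitals mark 2 motifs searched on both strands, the E-box CACGTG, which Myc and related factors can bind, and the ETS-type motif CCGGAAG, which reads CTTCCGG on the other strand.
Utp4 (chr8:106893520-106893669, plus strand): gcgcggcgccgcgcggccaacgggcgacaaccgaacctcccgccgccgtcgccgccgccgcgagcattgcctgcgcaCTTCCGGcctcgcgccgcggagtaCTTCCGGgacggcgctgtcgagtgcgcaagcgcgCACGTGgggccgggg
Nop2 (chr6:125131763-125131912, plus strand): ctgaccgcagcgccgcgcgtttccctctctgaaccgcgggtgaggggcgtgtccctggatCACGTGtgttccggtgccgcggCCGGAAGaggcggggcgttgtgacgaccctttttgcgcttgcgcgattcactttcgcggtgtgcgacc
Ppan (chr9:20888055-20888204, plus strand): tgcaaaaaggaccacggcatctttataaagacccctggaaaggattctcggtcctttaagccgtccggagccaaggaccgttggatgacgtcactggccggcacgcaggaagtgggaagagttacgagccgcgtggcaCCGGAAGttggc
Dkc1 (chrX:75095734-75095883, plus strand): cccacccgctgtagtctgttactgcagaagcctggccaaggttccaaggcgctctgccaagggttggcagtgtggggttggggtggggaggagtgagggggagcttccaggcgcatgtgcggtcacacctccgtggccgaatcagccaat
Nhp2 (chr11:51619653-51619802, plus strand): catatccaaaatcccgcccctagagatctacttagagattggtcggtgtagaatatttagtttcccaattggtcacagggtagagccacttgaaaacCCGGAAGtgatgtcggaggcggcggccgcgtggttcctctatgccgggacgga

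The promoter table held windows, from 250 bases before to 50 bases after the start, for 47 of the 53 members. The E-box was found in 10 of these 47 windows (21.3%), against 10.5% of the windows of genes tested and 8.09% of all windows. The ETS-type motif was found in 19 of the 47 (40.4%), against 15.8% of genes tested and 9.93% of all. Another motif, AAGATGG, the core letters of YY1 sites, was in 2 members (4.26%), against 7.68% of genes tested and 7.28% of all. No matches overlapped, and 5 members held both the E-box and the ETS-type motif. In the stretches above, Utp4 holds both motifs, Nop2 holds both, Ppan and Nhp2 hold the ETS-type motif and Dkc1 holds neither. The median log2 difference under rapamycin in Atg7+/- cells was -0.18 for members with the E-box and -0.12 for those without it, and in Atg7-/- cells it was -0.12 with the E-box and -0.15 without it. Between untreated Atg7-/- and Atg7+/- cells the median was 0.20 with the E-box and 0.19 without it. For the ETS-type motif, the medians under rapamycin with and without it were -0.13 and -0.14 in Atg7+/- and -0.16 and -0.13 in Atg7-/- cells. Of 13 members with a window that were called lower with rapamycin in either genotype, 4 held the ETS-type motif and 4 the E-box. Of the 33 other members tested, 14 held the ETS-type motif and 5 the E-box. A match is a run of letters and does not show that a factor binds there.

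Arrays correlated at 0.973 to 0.994 over the genes tested, and rapamycin Atg7-/- replicate 3 stood somewhat apart from its group. All 6 Treg markers were bright, with group means of 9.08 to 12.1 on the log2 scale, while 23 markers of B, plasma, myeloid, dendritic, erythroid and stromal cells had group means of 2.96 to 8.25, with the stromal marker Pecam1 at the top. Of 22 of these tested, 1 rose and 1 fell in untreated Atg7-/- relative to untreated Atg7+/- cells, and 0 passed between genotypes with rapamycin. Single arrays varied more. In rapamycin Atg7-/- cells the summed linear signal ran from 81.7 to 356.9 for neutrophil markers and from 68.8 to 306.6 for macrophage markers. For neutrophil markers it was 167.4 to 216.3 in untreated Atg7-/- and 85.4 to 163.5 in untreated Atg7+/- cells. Of 6 markers of CD8 T and natural killer cells, with group means of 3.51 to 7.85, Nkg7 rose in Atg7-/- cells in both genotype comparisons (0.94 with rapamycin and 0.86 untreated). Cd8b1 rose in Atg7-/- relative to Atg7+/- cells only among the rapamycin arrays (0.72). Cd8a, Klrb1c, Ncr1 and Prf1 did not pass. The summed linear signal of the 6 was 415.3 to 468.9 in rapamycin Atg7-/- cells, 260.0 to 311.8 in rapamycin Atg7+/- cells, 473.6 to 521.1 in untreated Atg7-/- cells and 351.5 to 367.1 in untreated Atg7+/- cells. Their part in the genotype differences below was not tested. The probe set of Atg7 averaged 6.38 (SD 0.24, n = 4) without rapamycin in Atg7-/- cells, against 6.66 (SD 0.060, n = 4) in Atg7+/- cells. It may lie outside the deleted part, so it checks nothing about the genotype labels. Foxp3 was lower in untreated Atg7-/- than in untreated Atg7+/- cells (log2 difference -0.40, limma adjusted p = 0.0355). With rapamycin it did not pass. Of the 6 Treg markers, 5 were lower in Atg7-/- than in Atg7+/- cells with rapamycin (median -0.23, 1 passing) and 3 untreated (median -0.06, 1 passing). Ikzf4 had the lowest difference in both, at -0.45 and -0.41. The 3 T cell markers measured (Cd3e, Cd3d and Cd4) were all higher in Atg7-/- than in Atg7+/- cells in both comparisons. Their median difference was 0.31 with rapamycin (1 passing) and 0.23 untreated (0 passing). With rapamycin their summed linear signal was 3263 to 3951 in Atg7-/- and 2515 to 3053 in Atg7+/- cells. Untreated it was 4021 to 4586 and 3665 to 4032. The part of T cell markers in the genotype differences was not tested. Myc, a known activator of ribosome biogenesis genes, passed no test, with log2 differences of -0.09 between untreated genotypes, -0.03 between genotypes with rapamycin, and 0.22 and 0.16 for rapamycin in Atg7-/- and in Atg7+/- cells.

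The members moved together in small steps. Each member's log2 signal was set against its own mean over the 16 arrays, and the median over the 51 members was taken on each array. This median was 0.10, -0.077, 0.054 and 0.068 on the arrays of rapamycin Atg7-/- cells and -0.20, -0.22, -0.087 and -0.16 on those of rapamycin Atg7+/- cells. It was 0.18, 0.17, 0.17 and 0.16 on the arrays of untreated Atg7-/- cells, and -0.019, 0.000057, -0.024 and -0.052 on those of untreated Atg7+/- cells. The 4 arrays of untreated Atg7-/- cells were thus the highest of the 16, the 4 arrays of rapamycin Atg7+/- cells were the lowest, and in both treatments no Atg7-/- array fell below an Atg7+/- array. The lowest array of rapamycin Atg7-/- cells was replicate 2. Over all genes tested, the same medians ran only between -0.032 and 0.035. In these bulk samples a smaller share of cells with a transcript and less of it in each cell cannot be told apart.

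**Figure D1:**
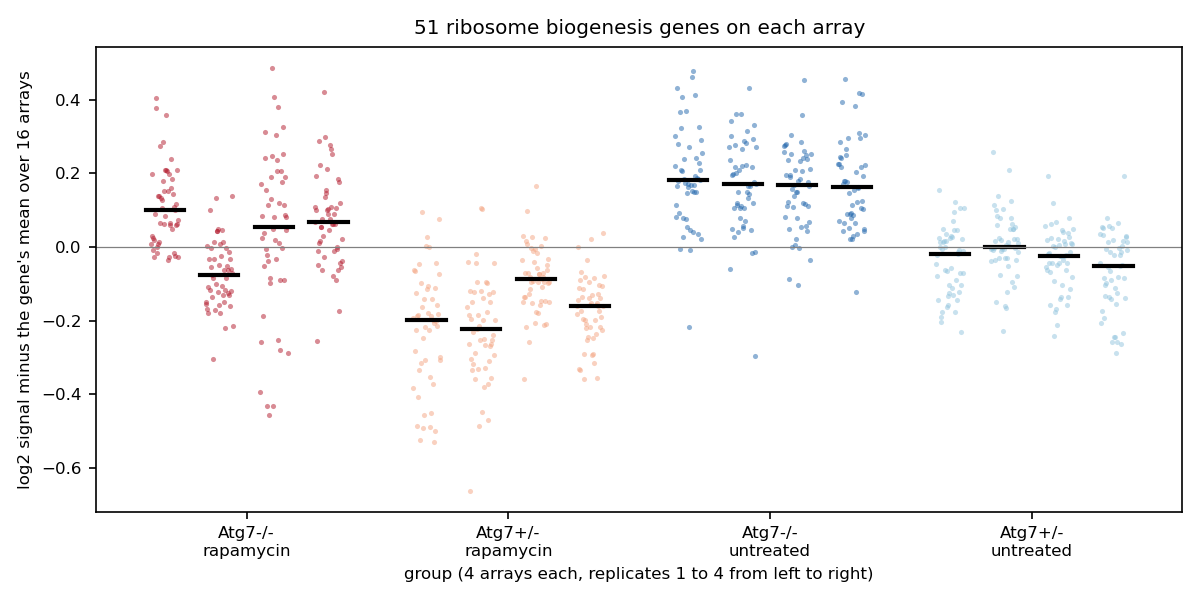
Each point is the log2 signal of 1 of the 51 genes minus its mean over 16 arrays, and each bar is the median on 1 array; groups run along the x axis with replicates 1 to 4 from left to right. All 4 untreated Atg7-/- arrays have medians between 0.16 and 0.18, above the other 12 arrays.

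By group means, 38 of the 51 members were highest in untreated Atg7-/- cells, as were 34.62% of all genes tested. In rapamycin Atg7+/- cells 42 members were lowest, as were 31.68% of all genes. All 38 were also among the 42, against 19.24% of all genes tested that showed both extremes. In 21 members the order below untreated Atg7-/- cells was rapamycin Atg7-/-, untreated Atg7+/- and rapamycin Atg7+/-, and in 17 members untreated Atg7+/- cells stood above rapamycin Atg7-/- cells. In another 7 members the order was rapamycin Atg7-/-, untreated Atg7-/-, rapamycin Atg7+/- and untreated Atg7+/- cells. These orders are of group means, and neighbours in them often differ by less than the spread between arrays.

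The comparison of genotypes asks what loss of Atg7 did to these genes, first without rapamycin. In untreated Atg7-/- cells 3 of the 51 members rose relative to untreated Atg7+/- cells and none fell: Wdr12 and Ddx18, both of large subunit assembly, and Dkc1, the pseudouridine synthase of box H/ACA ribonucleoproteins. The 3 are 5.88% of the members, and 1.75% of all genes tested rose (limma, adjusted p under 0.05). The fitted difference was above 0 for 50 of 51 members, Npm1 being the exception at -0.03, and for 55.49% of all genes. Among dimmer probe sets, that of Npm1 gave 0.06 and those of Nop56 gave 0.29 and -0.04. The median log2 difference was 0.20 over the members and 0.022 over all genes. For 33 members (64.71%) every untreated Atg7-/- array lay above every untreated Atg7+/- array, as it did for 8.17% of all genes.

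With rapamycin in both genotypes, 7 of the 51 members rose in Atg7-/- relative to Atg7+/- cells and none fell. They were Nhp2 of the box H/ACA ribonucleoprotein, Noc4l, Rrp9, Imp3 and Ltv1 of the small subunit, and Pes1 and Wdr12 of the large subunit. The 7 are 13.73% of the members, and 1.91% of all genes tested rose. All 51 differences were above 0, against 53.63% of all genes, with a median of 0.21 over the members and 0.017 over all genes. That sign holds for the brightest probe sets. The dimmer ones of Nop56 gave -0.06 and -0.44, that of Ppan -0.29 and that of Npm1 -0.002. The dimmer probe sets of Ddx18, Ddx21, Imp3 and Rrs1 stayed above 0. In 20 members (39.22%) the arrays of the genotypes did not overlap, all with Atg7-/- higher, as for 6.01% of all genes. Wdr12 was the 1 member that rose in both comparisons, and 9 members rose in either. The 2 comparisons share no arrays. Across the 51 members their log2 differences correlated with Pearson's r of 0.455 and Spearman's rho of 0.48, beside 0.494 and 0.41 across all genes tested, and genes are not independent replicates.

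**Figure D2:**
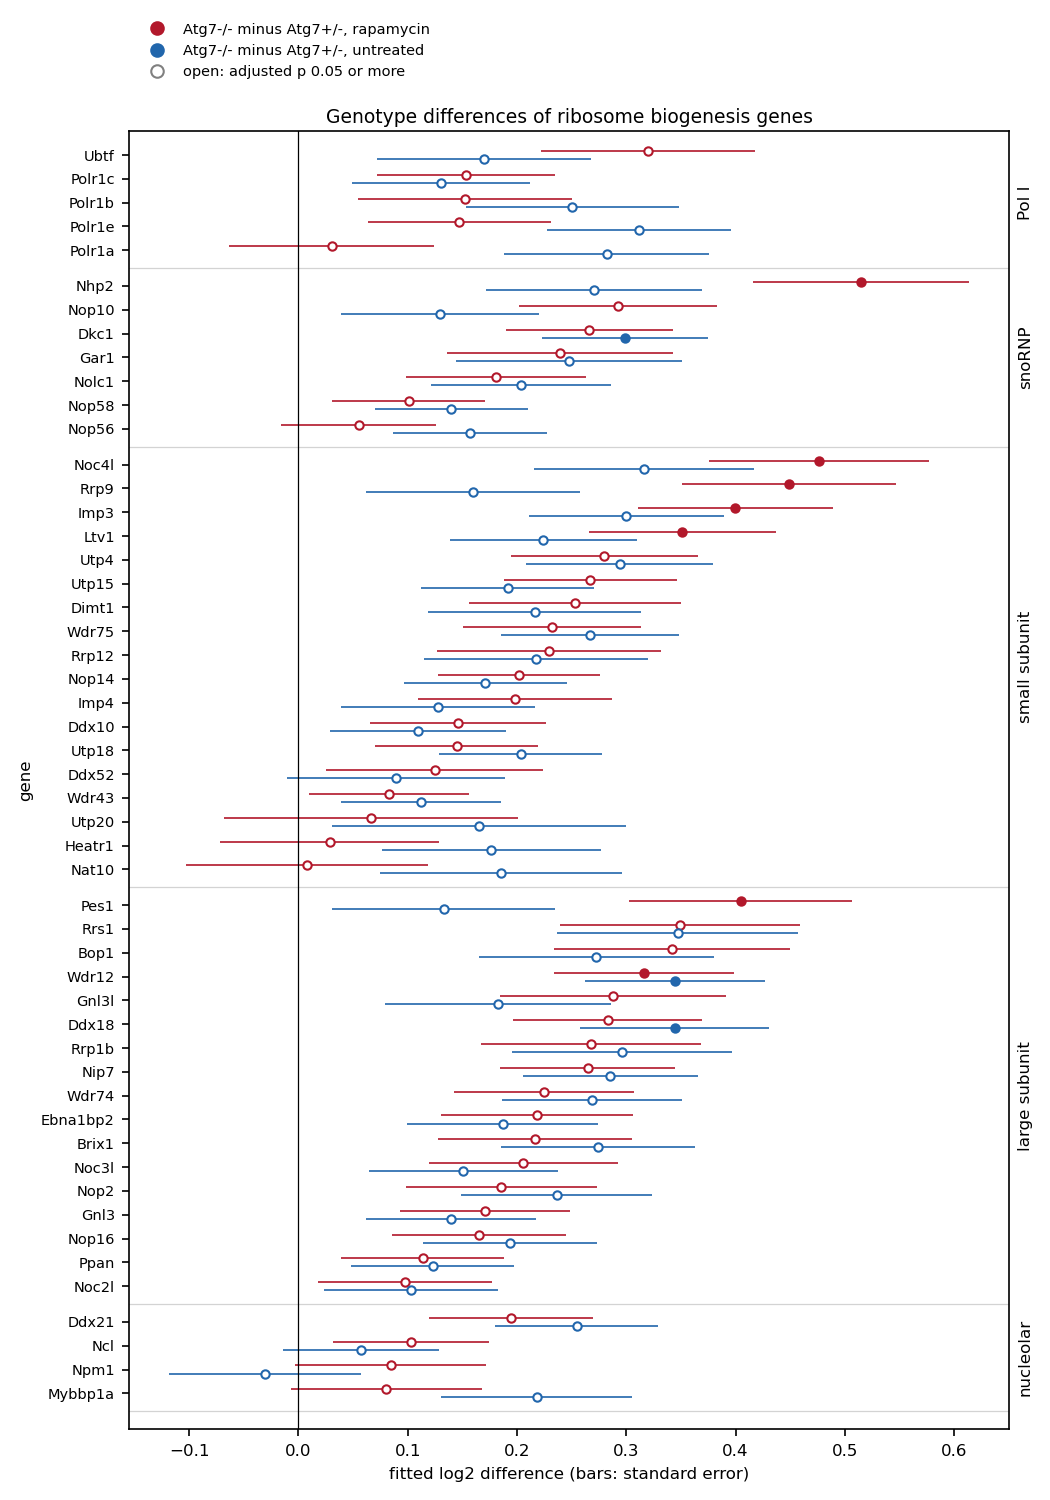
Fitted log2 differences, Atg7-/- minus Atg7+/- (x axis), with standard errors as bars, for the 51 genes by role, with rapamycin in red and untreated in blue; filled points have a limma adjusted p under 0.05. Every point but untreated Npm1 lies to the right of 0, and few are filled.

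RNA polymerase I genes did not pass the genotype tests. Polr1a encodes the largest subunit of the enzyme, Polr1e a subunit specific to it, and Ubtf the factor that opens the ribosomal DNA for it. The median of the 5 genes was 0.25 untreated and 0.15 with rapamycin. Polr1e had log2 signals of 7.43, 7.24, 7.43 and 7.51 in rapamycin Atg7-/- cells, 7.34, 7.14, 7.27 and 7.26 in rapamycin Atg7+/- cells, 7.52, 7.71, 7.68 and 7.65 in untreated Atg7-/- cells and 7.26, 7.40, 7.42 and 7.23 in untreated Atg7+/- cells. Its untreated genotypes did not overlap, with a log2 difference of 0.31 (SE 0.084) that just missed the threshold (limma adjusted p = 0.0511). Polr1a had 8.67, 8.52, 8.27 and 8.77 in rapamycin Atg7-/- cells, 8.47, 8.50, 8.63 and 8.51 in rapamycin Atg7+/- cells, 8.97, 8.94, 8.92 and 8.89 in untreated Atg7-/- cells and 8.62, 8.63, 8.72 and 8.62 in untreated Atg7+/- cells. Its genotypes stood apart without rapamycin (0.28, limma adjusted p = 0.114) and overlapped with it (0.03), where replicate 3 of the Atg7-/- cells was the lowest of all 16 arrays.

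Among the small nucleolar ribonucleoprotein genes, Dkc1 and Nhp2 carried the genotype calls. Each was 1 of 7 genes (14.29%), against 1.75% of all genes tested untreated and 1.91% with rapamycin. Both proteins belong to the box H/ACA particle, which converts uridines of ribosomal RNA to pseudouridines, together with Gar1 and Nop10. Dkc1 had log2 signals of 9.29, 9.09, 9.24 and 9.21 in rapamycin Atg7-/- cells, 9.02, 8.90, 8.99 and 8.87 in rapamycin Atg7+/- cells, 9.49, 9.40, 9.44 and 9.60 in untreated Atg7-/- cells and 9.20, 9.22, 9.19 and 9.12 in untreated Atg7+/- cells. The genotypes did not overlap under either treatment. The log2 difference was 0.30 untreated (SE 0.076, 1.23-fold, limma adjusted p = 0.0400) and 0.27 with rapamycin (adjusted p = 0.0635). Nhp2 had 9.77, 9.49, 9.70 and 9.68 in rapamycin Atg7-/- cells, 8.90, 9.05, 9.41 and 9.21 in rapamycin Atg7+/- cells, 9.48, 9.50, 9.51 and 9.56 in untreated Atg7-/- cells and 9.18, 9.35, 9.23 and 9.20 in untreated Atg7+/- cells. Nhp2 was 1.43-fold higher in Atg7-/- than in Atg7+/- cells with rapamycin (0.51, SE 0.099, limma adjusted p = 0.0111). That was the largest genotype difference of any member. Untreated, Nhp2 was 0.27 higher in Atg7-/- cells on the log2 scale, which did not pass (adjusted p = 0.152). Gar1 (0.25 untreated, 0.24 with rapamycin) and Nop10 (0.13 and 0.29) did not pass, nor did Nop56 and Nop58, the scaffold proteins of the box C/D particle, or their chaperone Nolc1.

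The small subunit genes held 4 of the 7 calls made with rapamycin and none of the 3 made without it. With rapamycin these were 4 of 18 genes (22.22%, against 1.91% of all genes tested), and without it 0 of 18 (against 1.75%). The medians of the group were close, at 0.22 with rapamycin and 0.19 without it. Noc4l works with Nop14 in nuclear maturation of the small subunit, Rrp9 is a protein of the box C/D particle that guides the first cuts of the precursor, Imp3 acts in the same cuts with Imp4, and Ltv1 is needed for late maturation. Noc4l had log2 signals of 9.35, 9.22, 9.42 and 9.32 in rapamycin Atg7-/- cells, 8.72, 8.69, 9.08 and 8.93 in rapamycin Atg7+/- cells, 9.55, 9.54, 9.39 and 9.20 in untreated Atg7-/- cells and 9.02, 9.17, 9.13 and 9.09 in untreated Atg7+/- cells. Genotypes did not overlap, and the log2 difference was 0.48 with rapamycin (SE 0.101, 1.39-fold, limma adjusted p = 0.0177) and 0.32 without it (adjusted p = 0.0977). Rrp9 had 8.54, 8.55, 8.60 and 8.71 in rapamycin Atg7-/- cells, 7.92, 8.08, 8.44 and 8.16 in rapamycin Atg7+/- cells, 8.59, 8.52, 8.55 and 8.46 in untreated Atg7-/- cells and 8.25, 8.40, 8.48 and 8.35 in untreated Atg7+/- cells. Rrp9 was 1.36-fold higher in Atg7-/- than in Atg7+/- cells with rapamycin (0.45, SE 0.098, limma adjusted p = 0.0204). It overlapped between genotypes without rapamycin (0.16). Imp3 (0.40, limma adjusted p = 0.0224) and Ltv1 (0.35, adjusted p = 0.0334) were also higher in Atg7-/- cells among the rapamycin arrays. Their untreated genotype differences were 0.30 and 0.22. Imp3 has a second, dimmer probe set, which gave 0.36 with rapamycin and 0.18 untreated. The smallest differences of the group with rapamycin were those of Nat10, an RNA acetyltransferase (0.01), and Heatr1, a scaffold of the small subunit processome (0.03).

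In the large subunit group the PeBoW complex, made of Pes1, Bop1 and Wdr12 and needed to mature the large subunit, held the calls with rapamycin. In each genotype comparison 2 of the 17 genes were called (11.76%), against 1.91% of all genes tested with rapamycin and 1.75% without it. Wdr12 had log2 signals of 8.36, 8.11, 8.42 and 8.32 in rapamycin Atg7-/- cells, 7.98, 7.96, 8.03 and 7.96 in rapamycin Atg7+/- cells, 8.38, 8.43, 8.40 and 8.59 in untreated Atg7-/- cells and 8.08, 8.18, 8.11 and 8.06 in untreated Atg7+/- cells. No Atg7-/- array overlapped the Atg7+/- arrays of its treatment, with log2 differences of 0.32 with rapamycin (SE 0.082, limma adjusted p = 0.0429) and 0.34 without it (adjusted p = 0.0282). Pes1 was higher in Atg7-/- than in Atg7+/- cells among the rapamycin arrays (0.40, SE 0.102, limma adjusted p = 0.0382). Its untreated arrays overlapped between genotypes (0.13). Bop1 did not pass, at 0.34 with rapamycin (adjusted p = 0.0871) and 0.27 untreated (adjusted p = 0.188). Ddx18, an RNA helicase, rose untreated (0.34, SE 0.086, limma adjusted p = 0.0366) and had 0.28 with rapamycin (adjusted p = 0.0776). Its second probe set gave smaller differences, of 0.17 untreated and 0.22 with rapamycin. All 17 genes of the group had differences above 0 in both comparisons, and Noc2l had the smallest in each (0.10 untreated and 0.10 with rapamycin).

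The 4 abundant nucleolar proteins had medians of 0.14 untreated and 0.09 with rapamycin. Ncl (nucleolin) differed by 0.06 untreated and 0.10 with rapamycin, and no gene of this group passed. Npm1 (nucleophosmin, whose gene has pseudogene copies that may share probes) had log2 signals of 11.84, 11.76, 11.71 and 11.57 in rapamycin Atg7-/- cells, 11.70, 11.58, 11.59 and 11.66 in rapamycin Atg7+/- cells, 11.65, 11.33, 11.59 and 11.67 in untreated Atg7-/- cells and 11.62, 11.55, 11.54 and 11.65 in untreated Atg7+/- cells. Its groups overlapped throughout. Ddx21, a helicase of ribosomal RNA synthesis, had 0.25 untreated (adjusted p = 0.0723) and 0.19 with rapamycin, with no overlap of genotypes in either comparison. 

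The genotype calls changed with single arrays while the medians kept their sign. Without rapamycin 0 members were called after median centring of the arrays. Leaving out 1 array gave 0 calls for untreated Atg7-/- replicate 4 and for untreated Atg7+/- replicates 3 and 4, and 1 call for untreated replicates 1 and 2 of either genotype. It gave 5 and 6 calls for rapamycin Atg7-/- replicates 2 and 3, and medians of 0.19 to 0.21. Over these fits 0.865% to 2.32% of all genes rose, against 1.75% with all arrays. With rapamycin, fitting only the 2 groups compared gave 0 calls. Leaving out 1 array gave 0 calls for rapamycin Atg7+/- replicate 2, 1 for replicate 1 and 4 for replicate 4. Of rapamycin Atg7-/- cells it gave 4 calls for replicate 1, 12 for replicate 2, and 3 for replicate 3 and for replicate 4, with medians of 0.18 to 0.25. Of all genes, 3.07% rose without rapamycin Atg7-/- replicate 2 and 0.244% without rapamycin Atg7+/- replicate 2, against 1.91% with all arrays. By gene, the untreated calls of Dkc1, Ddx18 and Wdr12 were lost when any 1 of 9, 6 and 5 of the 16 arrays was left out. The call of Wdr12 with rapamycin was lost for 14 arrays, that of Pes1 for 9 and that of Ltv1 for 6. Those of Rrp9 and Imp3 were each lost for 3, that of Noc4l for 2 and that of Nhp2 for 1.

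Genes of the cell cycle moved with genotype too. Of 7 proliferation markers measured, 4 rose in untreated Atg7-/- cells with a median of 1.02, Mki67 averaging 7.43 in untreated Atg7-/- and 5.98 in untreated Atg7+/- cells. With rapamycin none of the 7 passed between genotypes, and the median was 0.31. Their summed linear signal ranged from 1819 to 2192 in rapamycin Atg7-/- cells, 1772 to 1946 in rapamycin Atg7+/- cells, 2080 to 2300 in untreated Atg7-/- cells and 1863 to 1962 in untreated Atg7+/- cells. The part of proliferation in the differences of the ribosome biogenesis genes was not tested.

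The comparison of rapamycin with no treatment asks what the drug did to the same genes within a genotype. In Atg7-/- cells 12 of the 51 members fell with rapamycin and none rose, led by Utp4, Nop2 and Ubtf. The 12 are 23.53% of the members, and 11.1% of all genes tested fell. The difference was below 0 for 38 members (74.51%) and for 56.31% of all genes, with a median of -0.15 over the members and -0.040 over all genes. For 18 members (35.29%) all rapamycin arrays lay below all untreated arrays, as for 11.6% of all genes.

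In Atg7+/- cells 7 members fell with rapamycin and none rose, again led by Ubtf, Utp4 and Nop2. The 7 are 13.73% of the members, against 8.11% of all genes tested that fell. The difference was below 0 for 42 members (82.35%) and for 56.26% of all genes, with a median of -0.15 over the members and -0.035 over all genes. For 19 members (37.25%) all rapamycin arrays lay below all untreated arrays, as for 13.1% of all genes. Both genotypes called Ubtf, Utp4, Nop2, Ppan, Rrp1b and Dkc1, and 13 members were called in either genotype. The 2 rapamycin comparisons share no arrays with each other, though each shares its arrays with the genotype comparisons. Across the 51 members their differences correlated with r of 0.794 and rho of 0.745, beside 0.746 and 0.684 across all genes.

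**Figure D3:**
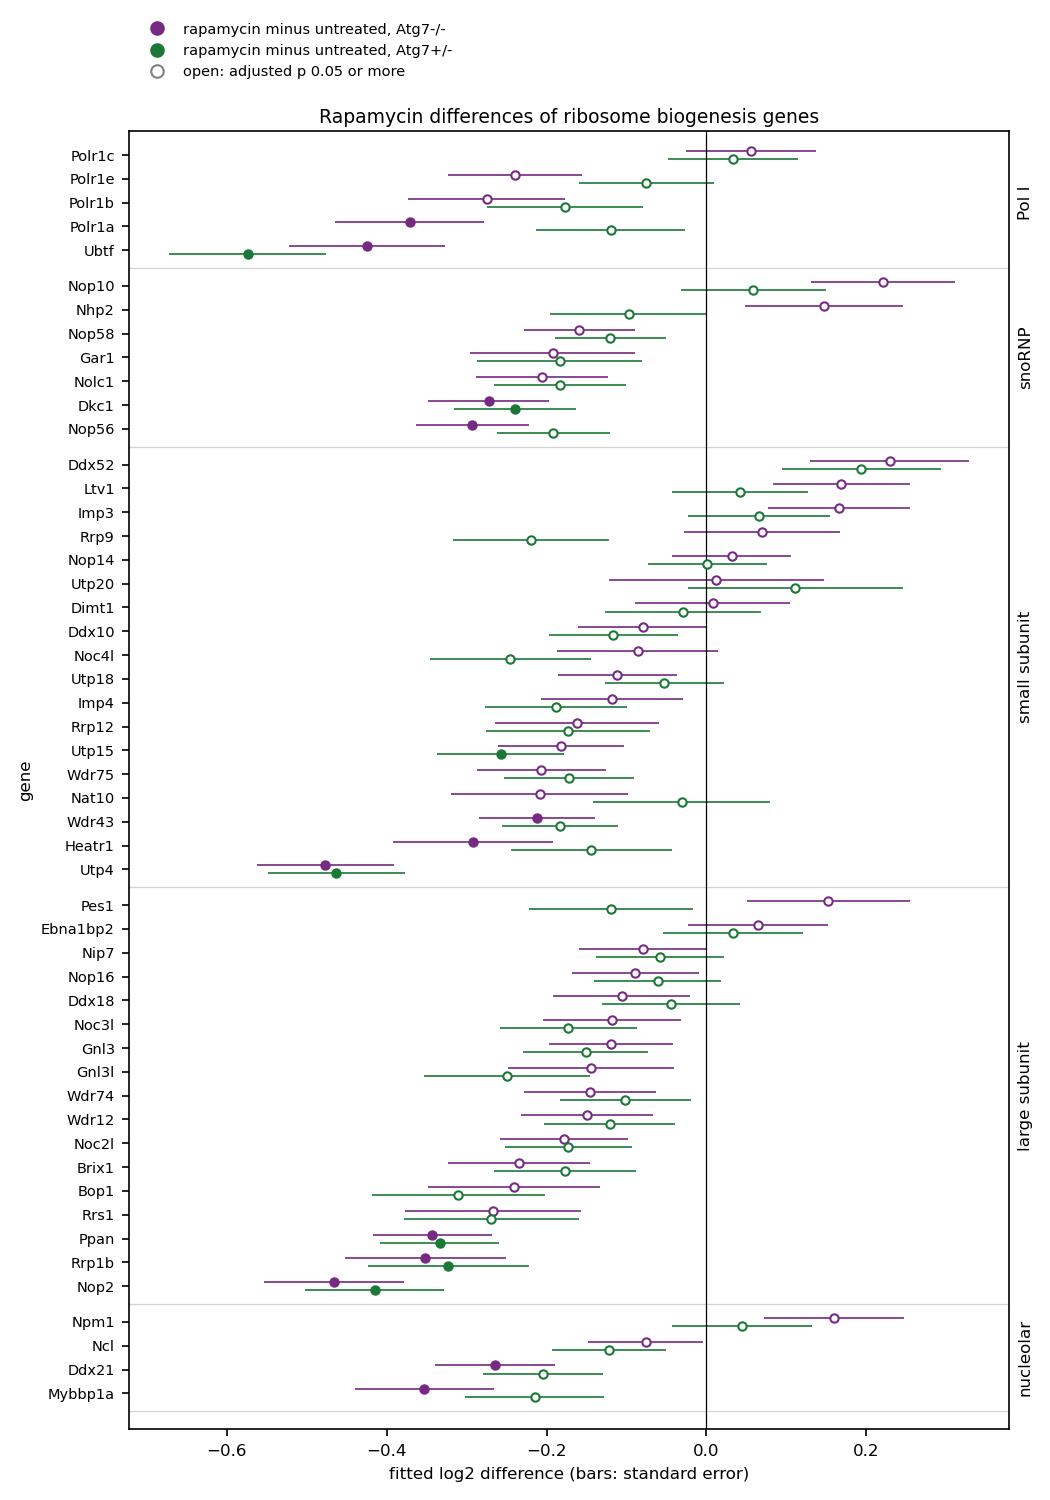
Fitted log2 differences, rapamycin minus untreated (x axis), with standard errors as bars, for the 51 genes by role, with Atg7-/- cells in purple and Atg7+/- cells in green; filled points have a limma adjusted p under 0.05. The filled points all lie to the left of 0, with Ubtf in Atg7+/- cells the farthest at -0.57.

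Of the 5 RNA polymerase I genes, 2 fell in Atg7-/- cells (40%, against 11.1% of all genes tested) and 1 in Atg7+/- cells (20%, against 8.11%). Ubtf fell in both genotypes. Its log2 signals were 8.26, 8.09, 8.35 and 8.01 in rapamycin Atg7-/- cells, 7.99, 7.61, 7.91 and 7.94 in rapamycin Atg7+/- cells, 8.70, 8.61, 8.55 and 8.55 in untreated Atg7-/- cells and 8.43, 8.53, 8.46 and 8.32 in untreated Atg7+/- cells. Within each genotype every rapamycin array lay below every untreated array. The log2 difference was -0.42 in Atg7-/- cells (SE 0.098, 1.34-fold lower, limma adjusted p = 0.00557) and -0.57 in Atg7+/- cells (1.49-fold lower, adjusted p = 0.00112). Polr1a, whose array values are given above, fell in Atg7-/- cells (-0.37, SE 0.094, limma adjusted p = 0.00968) and differed by -0.12 in Atg7+/- cells. Polr1e and Polr1b just missed the threshold in Atg7-/- cells (-0.24, adjusted p = 0.0524, and -0.28, adjusted p = 0.0552). Polr1c, a subunit shared with RNA polymerase III, had 0.06 in Atg7-/- and 0.03 in Atg7+/- cells.

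Of the 7 small nucleolar ribonucleoprotein genes, 2 fell with rapamycin in Atg7-/- cells, Nop56 and Dkc1 (28.57%, against 11.1% of all genes tested). In Atg7+/- cells 1 of the 7 fell, Dkc1 (14.29%, against 8.11%). Nop56 had log2 signals of 10.67, 10.58, 10.51 and 10.64 in rapamycin Atg7-/- cells, 10.47, 10.57, 10.56 and 10.58 in rapamycin Atg7+/- cells, 10.86, 10.89, 10.89 and 10.94 in untreated Atg7-/- cells and 10.72, 10.81, 10.67 and 10.75 in untreated Atg7+/- cells. It fell in Atg7-/- cells (-0.29, SE 0.071, limma adjusted p = 0.00737), and the difference in Atg7+/- cells was -0.19 (adjusted p = 0.0792). Of its 2 dimmer probe sets, 1 gave -0.33 in Atg7-/- and 0.07 in Atg7+/- cells, and the other gave 0.08 and 0.43. Dkc1 fell in Atg7-/- (-0.27, limma adjusted p = 0.0176) and in Atg7+/- cells (-0.24, adjusted p = 0.0436), with no overlap in either. Of its partners in the box H/ACA particle, Gar1 had -0.19 in Atg7-/- and -0.18 in Atg7+/- cells, Nhp2 had 0.15 and -0.10, and Nop10 had 0.22 and 0.06, none of which passed.

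In the small subunit group 3 of 18 genes fell in Atg7-/- cells (16.67%) and 2 in Atg7+/- cells (11.11%), shares close to the 11.1% and 8.11% of all genes tested. Utp4, Utp15, Heatr1, Wdr43 and Wdr75 are known members of the subcomplex of the processome that is tied to transcription of ribosomal DNA. Utp4 had log2 signals of 9.51, 9.20, 9.48 and 9.44 in rapamycin Atg7-/- cells, 8.98, 9.14, 9.24 and 9.14 in rapamycin Atg7+/- cells, 9.91, 9.87, 9.81 and 9.96 in untreated Atg7-/- cells and 9.52, 9.64, 9.62 and 9.58 in untreated Atg7+/- cells. Rapamycin arrays were below untreated arrays within each genotype, with log2 differences of -0.48 in Atg7-/- (SE 0.086, 1.39-fold lower, limma adjusted p = 0.00100) and -0.46 in Atg7+/- cells (adjusted p = 0.00216). Heatr1 (-0.29, adjusted p = 0.0480) and Wdr43 (-0.21, adjusted p = 0.0484) fell in Atg7-/- cells, and Utp15 fell in Atg7+/- cells (-0.26, adjusted p = 0.0367). Wdr75 did not pass in either (-0.21 and -0.17). The largest difference above 0 in the group was that of Ddx52, an RNA helicase, at 0.23 in Atg7-/- and 0.19 in Atg7+/- cells, neither of which passed.

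Nop2, Ppan and Rrp1b of the large subunit group fell in both genotypes. These 3 of 17 genes are 17.65%, against 11.1% of all genes tested in Atg7-/- and 8.11% in Atg7+/- cells. Nop2, a methyltransferase of large subunit RNA, had log2 signals of 9.14, 9.01, 8.91 and 9.09 in rapamycin Atg7-/- cells, 8.71, 8.83, 9.01 and 8.85 in rapamycin Atg7+/- cells, 9.64, 9.48, 9.52 and 9.37 in untreated Atg7-/- cells and 9.26, 9.37, 9.21 and 9.23 in untreated Atg7+/- cells. The log2 difference was -0.47 in Atg7-/- (SE 0.087, 1.38-fold lower, limma adjusted p = 0.00136) and -0.42 in Atg7+/- cells (adjusted p = 0.00479), with no overlap of treatments within a genotype. Ppan, an assembly factor of the large subunit, had 9.63, 9.50, 9.57 and 9.48 in rapamycin Atg7-/- cells, 9.44, 9.40, 9.45 and 9.44 in rapamycin Atg7+/- cells, 9.99, 9.95, 9.83 and 9.78 in untreated Atg7-/- cells and 9.77, 9.71, 9.74 and 9.85 in untreated Atg7+/- cells. Treatments did not overlap within a genotype, with differences of -0.34 (SE 0.074, limma adjusted p = 0.00372) and -0.33 (adjusted p = 0.00685). Its dimmer probe set gave larger differences, of -1.34 in Atg7-/- and -0.89 in Atg7+/- cells, so the size for Ppan depends on the probe set. Rrp1b, a factor linked to protein phosphatase in the nucleolus, fell by 0.35 on the log2 scale in Atg7-/- and by 0.32 in Atg7+/- cells (limma adjusted p = 0.0199 and 0.0395). Wdr12, Pes1 and Ddx18, which were called between genotypes, passed in neither rapamycin comparison.

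**Figure D4:**
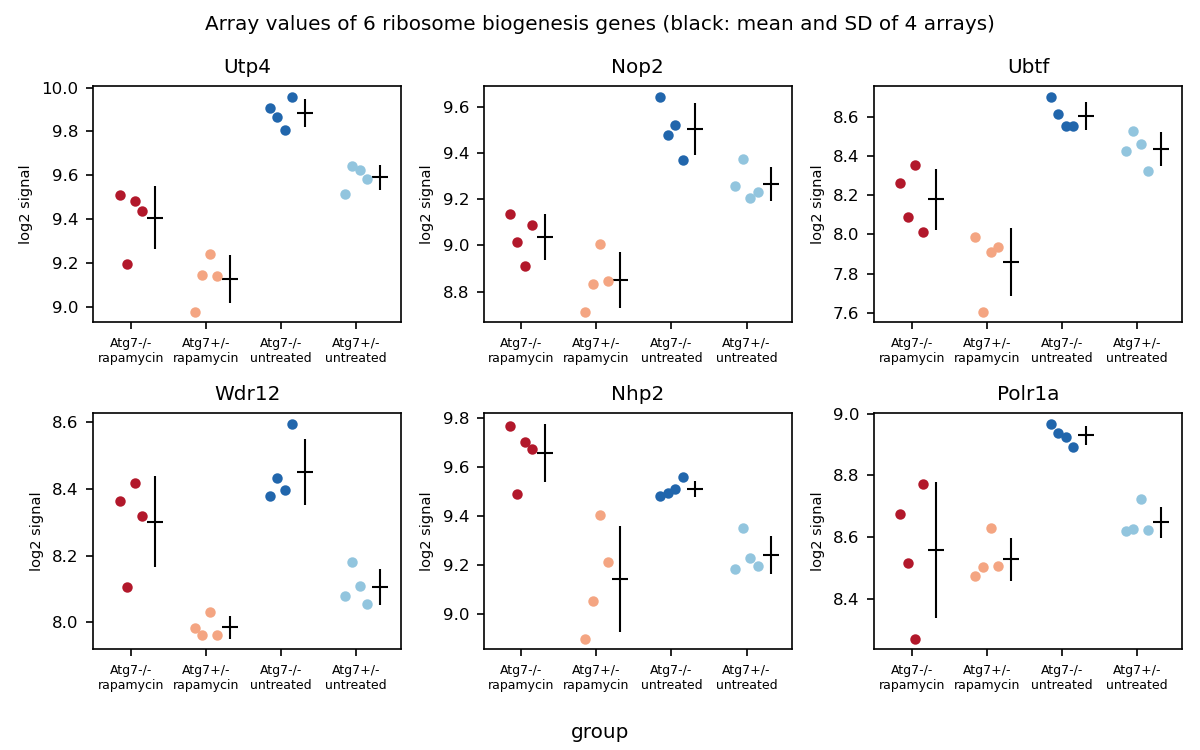
Log2 signal (y axis, which does not start at 0) of 6 genes on each of the 16 arrays, by group, with the group mean and SD in black beside the points. In Utp4, Nop2 and Ubtf all rapamycin arrays lie below the untreated arrays of the same genotype, and in Wdr12 and Nhp2 all Atg7-/- arrays lie above the Atg7+/- arrays of the same treatment.

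Of the 4 abundant nucleolar proteins, 2 fell in Atg7-/- cells (50%, against 11.1% of all genes tested) and none in Atg7+/- cells. Mybbp1a, a nucleolar regulator that binds RNA polymerase I, had log2 signals of 9.41, 9.12, 9.05 and 9.36 in rapamycin Atg7-/- cells, 9.04, 9.14, 9.19 and 9.26 in rapamycin Atg7+/- cells, 9.59, 9.61, 9.59 and 9.56 in untreated Atg7-/- cells and 9.44, 9.32, 9.39 and 9.33 in untreated Atg7+/- cells. It fell in Atg7-/- cells (-0.35, SE 0.088, limma adjusted p = 0.00882) and differed by -0.22 in Atg7+/- cells (adjusted p = 0.110), and rapamycin arrays lay below untreated ones in both. Ddx21 had 11.06, 11.02, 11.15 and 11.05 in rapamycin Atg7-/- cells, 10.78, 10.80, 11.00 and 10.93 in rapamycin Atg7+/- cells, 11.38, 11.26, 11.30 and 11.40 in untreated Atg7-/- cells and 11.02, 11.10, 11.10 and 11.10 in untreated Atg7+/- cells. It fell in Atg7-/- cells (-0.26, limma adjusted p = 0.0189) and had -0.20 in Atg7+/- cells (adjusted p = 0.0769). Npm1 had 0.16 and 0.05, while its dimmer probe set gave -0.25 and -0.19.

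The calls of Ubtf, Utp4, Nop2 and Ppan in both genotypes, and of Polr1a, Nop56 and Mybbp1a in Atg7-/- cells, held without any 1 of the 16 arrays. Those of Heatr1 and Wdr43 were lost without any of 14 and 15 arrays, with adjusted p up to 0.134 for each. The calls of Dkc1, Utp15 and Rrp1b in Atg7+/- cells were lost when any 1 of 11, 7 and 7 arrays was left out. For Rrp1b, Dkc1 and Ddx21 in Atg7-/- cells this held for 3, 2 and 1 arrays. In Atg7-/- cells, fitting only the 2 groups gave 6 calls in place of 12, and the median was -0.092 without rapamycin Atg7-/- replicate 2. In Atg7+/- cells 4 calls in place of 7 were left without rapamycin replicate 1, 2 or 4, or without any 1 untreated replicate. In those fits 5.21% to 6.66% of all genes fell, against 8.11% with all arrays. Arrays of rapamycin Atg7-/- cells deviated from their group mean by a root mean square of 0.159 to 0.242 over all genes tested, against 0.15 to 0.188 in untreated Atg7-/- cells. Proliferation markers fell in 4 of 7 cases with rapamycin in Atg7-/- cells, with a median of -0.79, and in none in Atg7+/- cells, with a median of -0.05. T cell markers were also lower: Cd4 fell by 0.75 in Atg7-/- and by 0.67 in Atg7+/- cells, Cd3e fell by 0.35 and by 0.55, and Cd3d (-0.11 and -0.22) did not pass. Of 22 markers of B, plasma, myeloid, dendritic, erythroid and stromal cells tested, 4 fell and 1 rose in Atg7-/- cells, and 3 fell and 1 rose in Atg7+/- cells. Among them the dendritic marker Xcr1 fell by 1.10 in both genotypes, and Pecam1 fell by 0.81 and by 0.52. Other markers of the same cells went the other way. Of the 4 dendritic markers, Siglech (0.20 in Atg7-/- and 0.69 in Atg7+/- cells) and Flt3 were higher with rapamycin in both genotypes, and Zbtb46 was lower. The stromal markers Col1a1 (0.08 and 0.09) and Col3a1 (0.17 and 0.03) lay slightly above 0. The part of these markers in the result was not tested.

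Whether rapamycin acted differently in the 2 genotypes was tested as the difference of its effects, Atg7-/- minus Atg7+/-. No member passed, none had an unadjusted p under 0.05, and 0% of all genes passed (limma, 0 of 16760, with 1052 at an unadjusted p under 0.05). The members' median was -0.009. The smallest p-values belonged to Rrp9 (0.29, 95% interval -0.0019 to 0.58), Polr1a (-0.25, interval -0.53 to 0.027), Pes1 (0.27, interval -0.032 to 0.58) and Nhp2 (0.24, interval -0.050 to 0.54), with limma adjusted p-values of 0.791 to 0.798. For Rrp9, Pes1 and Nhp2 the rapamycin difference was above 0 in Atg7-/- cells (0.07, 0.15 and 0.15) and below 0 in Atg7+/- cells (-0.22, -0.12 and -0.10), and for Polr1a it was farther below 0 in Atg7-/- cells. The intervals are wide against the sizes of the effects themselves, so these data do not show that the effects were equal.

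**Figure D5:**
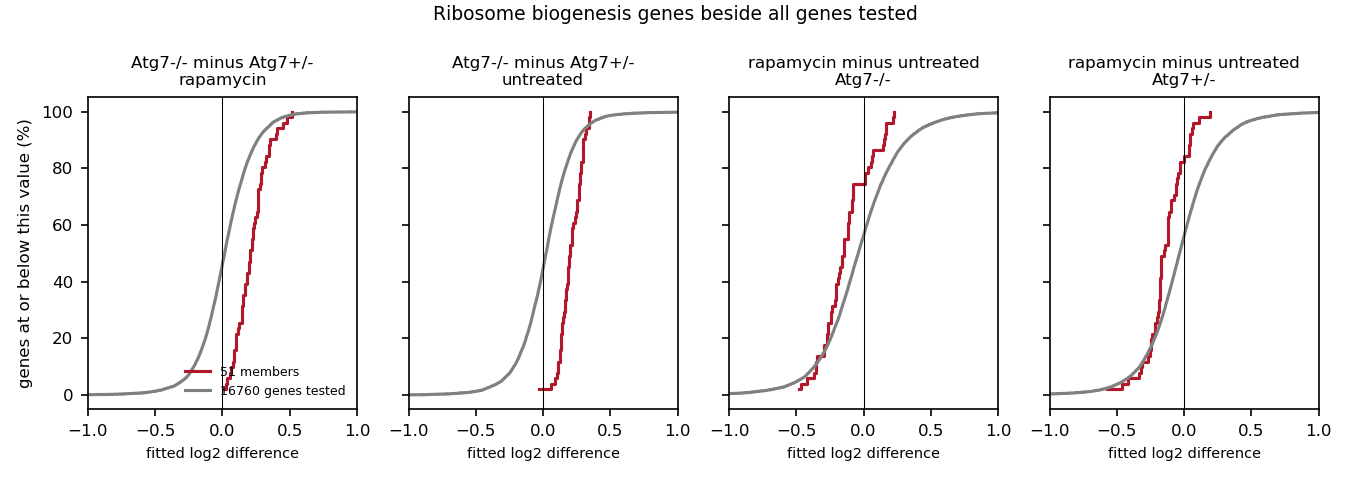
Cumulative share of genes (y axis, %) by fitted log2 difference (x axis, drawn from -1 to 1) for the 51 members in red and the 16760 genes tested in grey, in 4 comparisons. The members' curves lie to the right of all genes between genotypes (medians 0.21 with rapamycin and 0.20 untreated) and to the left with rapamycin (medians -0.15 and -0.15).

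Genes of ribosome biogenesis outside the 53 were described from a further list of 102 genes, 93 of which were tested. Between genotypes 10 of the 93 rose with rapamycin (10.75%, against 1.91% of all genes tested) and 4 rose without it (4.30%, against 1.75%), and none fell. Among those with rapamycin were Rsl24d1 (0.46), Ruvbl2, an ATPase of the assembly chaperone of small nucleolar ribonucleoproteins (0.43), Rpf2 (0.42) and Rrp15 (0.41). Those without rapamycin were Shq1, the assembly chaperone of Dkc1 (0.47), Znhit6, an assembly factor of box C/D particles (0.40), Wdr3 (0.37) and Pwp1 (0.35). The list's medians were 0.21 with rapamycin and 0.16 without it.

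With rapamycin 13 of the 93 fell in Atg7-/- cells (13.98%, against 11.1% of all genes) and 8 rose (8.60%, against 8.83%), so both shares were near the background. In Atg7+/- cells 11 fell (11.83%, against 8.11%) and 1 rose (1.075%, against 6.03%). The list's medians were -0.091 in Atg7-/- and -0.12 in Atg7+/- cells. Rrp7a, of the small subunit, fell by 0.66 on the log2 scale in Atg7-/- and by 0.81 in Atg7+/- cells, and Nle1, of the large subunit, fell by 0.55 and by 0.71. Rrn3, the factor that recruits RNA polymerase I to its promoter and is a known target of mTOR signalling, fell by 0.48 in Atg7-/- and by 0.43 in Atg7+/- cells. Dhx37 (-0.32 and -0.46) and Nol6 (-0.33 and -0.44) also fell in both. Exosc5, a subunit of the RNA exosome, rose in Atg7-/- cells (0.40, limma adjusted p = 0.00791).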

How the data were processed

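Gene arrays measured RNA in 16 samples, 4 per group. The amount of RNA given is 1 to 5 ng for every sample. Each deposited value is a log2 signal of 1 probe set. Per the submitters' processing notes RMA and Partek 6.6 were used; the base of the log is not written and was taken as 2. The genome build is not given in the sources used here. Probe sets with 1 symbol in the platform annotation stood for 22180 genes, of which 16760 had a highest group mean above 3.549, the 30th percentile of all values, and were tested. Dim probe sets carry little signal over background, and no read depth exists for arrays, and precision depends on how many arrays there are.

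All 16 arrays were fitted together, each group with its own mean, by limma 3.58.1 in R 4.3.3 (12 residual and 5.64 prior degrees of freedom), two-sided, adjusted by Benjamini-Hochberg over the 16760 genes, with calls at an adjusted p under 0.05. The fit was tested on simulated data. Intervals are 95%. Promoter windows came from RefSeq (GRCm38.p6). The members, the lists of markers and of further genes, and the tests were chosen with earlier results of these data known. Any member could be named. All called members are named, with the smallest p-values added up to 4 where fewer were called, up to 4 called genes of the further list with the largest changes, and Atg7, Foxp3 and Myc. Array values are given for the 3 members per role with the smallest p in any comparison. Alternatives changed scaling, filters, probe sets, the variance model, the arrays used and a replicate block.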

Additional observations from a re-analysis of the deposited data

Results flagged for a closer look

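In the sets of 4 arrays of members whose array values are given, 3 of 60 sets held an array far from its nearest neighbour relative to the range, and chance marks about 1 set in 20. Polr1a had 8.72 in untreated Atg7+/- replicate 3, with the nearest array at 8.63. Ppan had 9.40 in rapamycin Atg7+/- replicate 2, with the nearest at 9.44. Ddx21 had 11.02 in untreated Atg7+/- replicate 1, with the nearest at 11.10.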

How the results depend on the processing

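Counts of calls moved with the model and medians little. Between untreated genotypes, 3 members were called, against 0 with median centring, 8 with a filter at the 50th percentile, 1 with all probe sets tested, 10 with trend and robust eBayes and 12 with array weights. The share of all genes that rose moved too, from 1.75% to 0.983%, 3.36%, 0.703%, 2.32% and 3.32% in the same order. With rapamycin, 7 became 11 with the 50th percentile filter, 4 with all probe sets, 16 with trend and robust eBayes and 0 with only the 2 groups, and median centring gave a median of 0.265. The share of all genes that rose went from 1.91% to 4.46%, 0.729%, 3.50% and 0.0358% in those 4 settings. For rapamycin in Atg7-/- cells, 12 became 6 with only the 2 groups, where 7.31% of all genes fell, against 11.1% as deposited. In Atg7+/- cells, 7 became 11 with trend and robust eBayes, 12 with array weights and 4 with the gene length trend removed, which was chosen after seeing the data. Of all genes tested, 8.11% fell in Atg7+/- cells as deposited, 8.75% with trend and robust eBayes and 11.8% with array weights. With the length trend removed 7.17% fell, so the 4 of 51 members were near the background there. The median difference of the effects was 0.0524 with median centring. With median centring the median of all genes between genotypes with rapamycin was 0.0757, against 0.017 as deposited, and the members' median stood 0.189 above it. The causes were not tested.

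Leaving out 1 array gave 0 to 6 and 0 to 12 genotype calls untreated and with rapamycin, 9 to 13 rapamycin calls in Atg7-/- and 4 to 9 in Atg7+/- cells, and 0 for the difference. The share of all genes that rose between genotypes was 0.865% to 2.32% untreated and 0.244% to 3.07% with rapamycin. The share that fell with rapamycin was 8.34% to 11.9% in Atg7-/- and 5.21% to 9.33% in Atg7+/- cells. The members' medians ranged over 0.189 to 0.213, 0.180 to 0.255, -0.171 to -0.0918, -0.169 to -0.128, and -0.0310 to 0.0370.

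Calls over all 16760 genes moved too. Between untreated genotypes, 527 became 974 with array weights and 318 with median centring. With rapamycin, 543 became 886 with trend and robust eBayes, 20 with only the 2 groups and 95 without rapamycin Atg7+/- replicate 2; the higher share, 320 of 543, became 253 of 350 with median centring and 542 of 783 with quantile normalization.

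Deviations of same-numbered samples in different groups correlated at -0.0829 to 0.358, and over 0.1 in 6 of 24 pairs. Between rapamycin Atg7-/- and rapamycin Atg7+/- cells, replicates 1, 2 and 3 correlated at 0.24, 0.19 and 0.36, and replicate 4 at -0.066. Differently numbered samples were not compared, so whether the numbers pair the samples is not known. With the replicate number as a block, 2 and 6 members were called between genotypes untreated and with rapamycin, 11 and 5 with rapamycin in Atg7-/- and Atg7+/- cells, and 0 for the difference. With that block 1.67% and 2.06% of all genes rose between genotypes, and 11.8% and 8.56% fell with rapamycin, in the same order.

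Signs turned in the members' median for the difference of effects, which was -0.00882 as deposited, and in uncalled results of single genes outside the 53. With median centring, Myc between genotypes with rapamycin was 0.0302 and the difference of effects for Atg7 was 0.0330. Leaving out 1 array gave ranges across 0: for Myc -0.123 to 0.00359 between untreated genotypes and -0.0684 to 0.0168 between genotypes with rapamycin, and for Atg7 -0.0103 to 0.254 with rapamycin in Atg7-/- cells. For the difference of effects the ranges were -0.139 to 0.125 for Atg7, -0.0493 to 0.120 for Foxp3 and -0.0321 to 0.102 for Myc.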
